A study of Drosophila melanogaster with 2 samples.

Results

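Among the piRNA features counted in Drosophila melanogaster ovaries, 135 of 1364 carry a name tagged for a distant relative of the fly, either Drosophila willistoni (tag DWil, 115 entries) or Drosophila mojavensis (tag Dmoj, 20 entries). The tag in the name was the rule for choosing them, and the rule uses no count. Small RNAs of 18 to 30 nt were sequenced from hand-dissected ovaries of females aged 3 to 5 days, in 2 genotypes. The peloPB60/1 females carry 2 mutant alleles of pelo, called PB60 and 1, and the pelo1/+ females carry the allele 1 over a normal copy, so both groups share the allele 1. The gene pelo encodes a factor that rescues stalled ribosomes and is needed in the female germline. Each genotype was represented by 1 library, so a difference is one between 2 libraries without replicates, no test was run, and the intervals cover counting error only.

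piRNAs are short RNAs that guide Piwi-family proteins to transposon transcripts in the gonads, in fly ovaries both in germ cells and in the surrounding follicle cells. Most of the 135 entries are LTR retrotransposons, which copy themselves through RNA. Such an element has an internal part that encodes its proteins, flanked by long terminal repeats (LTRs) that hold the signals to start and end its transcript. Gypsy, BEL and Copia are superfamilies of such elements found in insects, and CR1 is a family of retrotransposons without LTRs.

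By the start of the name, 87 entries were Gypsy, 33 BEL, 14 Copia and 1 CR1. By the part named, 70 were internal, 64 were LTRs and 1, CR1-1_DWil, was neither. They came from 75 named elements, of which 60 had both an internal and an LTR entry, 10 had an internal entry alone, 4 had an LTR entry alone and the other was CR1-1_DWil. The willistoni Gypsy internal entries ran without a gap from number 1 to number 38. The sequenced RNA came from Drosophila melanogaster, so these counts are reads of that species that the authors' matching placed on an entry named for another species. Which melanogaster sequence gave a read, and how a read matching several related entries was counted, is not recorded in the tables, so single values are uncertain. The lengths of the entries are not in the tables either, so read counts of different entries are not levels per length.

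The total of the piRNA table was 4872519 reads in peloPB60/1, over 1097 features, and 5229331 reads in pelo1/+, over 1127 features. A count of 0 allows up to 0.616 and 0.574 reads per 1000000 piRNA reads (CPM) in peloPB60/1 and pelo1/+. The tables count small RNAs, not mRNAs, so the genotype labels could not be checked against the pelo transcript.

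Taken as a pool, the 135 entries received 9460 reads in peloPB60/1 and 12631 reads in pelo1/+. This was 0.194% of the piRNA reads in peloPB60/1 (exact binomial 95% interval 0.190 to 0.198%) and 0.242% in pelo1/+ (0.237 to 0.246%). The share was thus 0.804 times as large in peloPB60/1 (95% interval 0.783 to 0.826), a log2 ratio of -0.32. In RNA of whole ovaries, fewer cells of a type and less RNA per cell cannot be told apart. The ratio stayed below 0 under all 6 other scalings tried, from -0.55 to -0.14. All other piRNA features together had a log2 ratio of 0.00, as they make up 99.8% of each table. The 269 features tagged for other Drosophila species had 0.03, a value that turned below 0 when scaled to the miRNA total or to the total of both tables. The 269 include 8 features with tags similar to DWil or Dmoj, listed further below. Of the reads on those 269 features, 123382 of 151085 in peloPB60/1 and 124439 of 158297 in pelo1/+ lay on 4 features with at least 10000 summed reads each, an abundance that no distant-relative entry reached. The pooled value of the 269 is thus mostly that of 4 features. Among features with at least 50 reads in both libraries together, the median was -0.40 for the distant-relative entries and -0.35 for the 154 tagged for other species.

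Of the 135 entries, 126 were listed in peloPB60/1, 132 in pelo1/+ and 123 in both. The 3 listed in peloPB60/1 alone held 16 reads, and the 9 listed in pelo1/+ alone held 17. Gypsy-4_DWil-LTR, named here after its values were seen, had the most of these, with 10 reads in peloPB60/1 and 0 in pelo1/+. Reads were concentrated on few entries. The 10 entries with the most reads held 62.8% of the pool in peloPB60/1 and 56.3% in pelo1/+.

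Gypsy-30_DWil-I, the internal part of a Gypsy element, led by a wide margin, with 3301 reads in peloPB60/1 and 4449 reads in pelo1/+. It held 34.9% of the pooled reads in peloPB60/1 and 35.2% in pelo1/+, and ranked 101 among all 1364 piRNA features. Its log2 ratio was -0.33 (95% interval -0.39 to -0.26), close to that of the pool, and without it the pool had -0.31. Its own LTR entry, Gypsy-30_DWil-LTR, lay the other way, with 320 reads in peloPB60/1 and 240 reads in pelo1/+ (log2 ratio 0.52, 0.27 to 0.76).

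Internal parts of BEL elements filled the next places. BEL-4_DWil-I had 646 reads in peloPB60/1 and 339 reads in pelo1/+. BEL-6_DWil-I had 409 reads in peloPB60/1 and 429 reads in pelo1/+. BEL-10_DWil-I had 329 reads in peloPB60/1 and 258 reads in pelo1/+. Of these 3, BEL-4_DWil-I was about 2-fold higher in peloPB60/1 (log2 ratio 1.03, 0.84 to 1.23), BEL-10_DWil-I was higher by less (0.45, 0.21 to 0.69) and the interval of BEL-6_DWil-I included 0 (0.03, -0.17 to 0.23).

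The remaining entries of the leading 10 were mixed. Copia-6_DWil-I, the Copia entry with the most reads, was at 61.0 CPM in peloPB60/1 and 48.8 CPM in pelo1/+ (log2 ratio 0.32, 0.08 to 0.57). BEL-5_DWil-LTR had 245 reads in peloPB60/1 and 287 reads in pelo1/+ (-0.13). Gypsy-1_DWil-I and BEL-1_DWil-I, at 198 and 166 reads in peloPB60/1 against 245 and 154 reads in pelo1/+, had intervals that included 0 on the log2 scale. Gypsy-6_DWil-I stood apart from all of these. It had 29 reads in peloPB60/1 and 454 reads in pelo1/+, or 5.95 and 86.8 CPM, and was 14.4-fold lower in peloPB60/1 (log2 ratio -3.84, -4.46 to -3.32). This 1 entry made up 17.1% of the difference in pooled CPM, and without it the pool had a log2 ratio of -0.27. Gypsy-30_DWil-I, with far more reads, made up 36.6% of that difference.

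**Figure D1:**
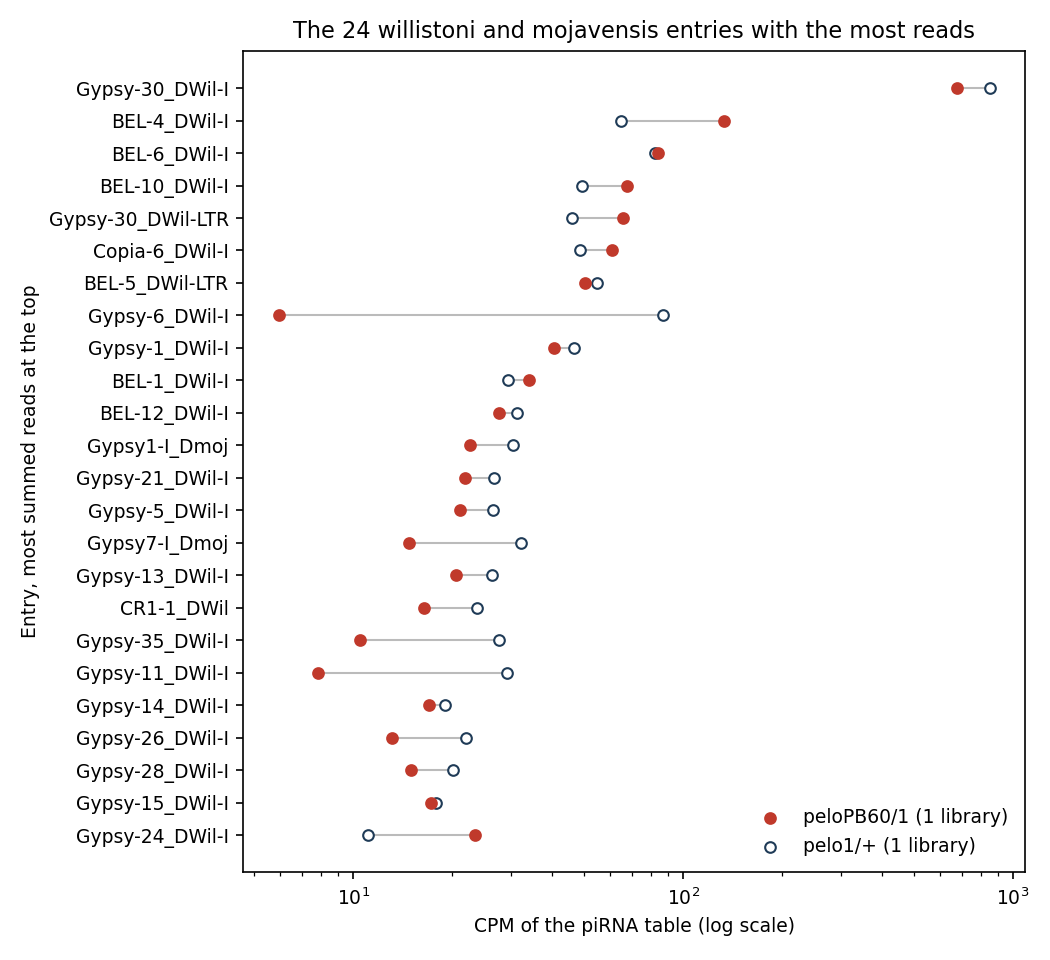
CPM of the piRNA table (log scale) in the peloPB60/1 library (filled) and the pelo1/+ library (open) for the 24 entries with the most summed reads. Gypsy-30_DWil-I is the rightmost entry in both libraries, and Gypsy-6_DWil-I shows the widest gap, at 5.95 CPM in peloPB60/1 and 86.8 CPM in pelo1/+.

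Single entries were compared where both libraries together held at least 50 reads, which 79 of the 135 entries did. All 70 internal entries passed (the fewest reads on one were 50), and so did CR1-1_DWil and 8 of the 64 LTR entries. The 56 entries that did not pass held 1.998% of the pooled reads in peloPB60/1 and 1.58% in pelo1/+. Of the 79 that passed, 60 had a log2 ratio below 0 and 19 above 0, and the interval left out 0 for 35 and 6 of these. Their median was -0.40, with quartiles of -0.88 and -0.05, beside a median of -0.22 for all 438 piRNA features that passed. With edgeR's TMM scaling the 2 medians were -0.22 and -0.04.

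A call needed a difference of 2-fold or more and an interval that left out a ratio of 1. By this rule 18 of 79 entries were lower in peloPB60/1, or 22.8%, where 15.8% of all tested piRNA features were. By the same rule 3 of 79, or 3.80%, were higher, where 2.97% of all tested features were. Among features tagged for other species 30 of 154 were lower (19.5%) and 2 were higher, shares close to those of the distant-relative entries. At 4-fold, 4 of 79 entries were lower and 0 higher, where 4.11% and 0.228% of all tested features were. At 1.5-fold, 32 of 79 were lower and 3 higher, where 28.3% and 8.45% of all tested features were. Scaled to the miRNA total, 26 were lower and 0 higher at 2-fold, where 23.1% and 1.14% of all tested features were. With TMM, median-of-ratios factors and upper quartiles 13, 15 and 16 of the 79 were lower, and 3 were higher with each. The shares of all tested features were not computed with these 3 scalings. The shares of lower entries at 2-fold and at 4-fold were thus not far from those of the whole table, which includes the 79. Of the 359 other features that passed, 14.2% were lower and 2.79% higher at 2-fold. At 1.5-fold the share of lower entries was larger than that of the whole table, and the share of higher entries smaller.

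Gypsy entries led the list of lower ones, and 4 of its entries were lower by at least 4-fold. After Gypsy-6_DWil-I came Gypsy1-LTR_Dmoj, with 13 reads in peloPB60/1 and 129 reads in pelo1/+, 8.94-fold lower. Gypsy2-I_Dmoj had 25 reads in peloPB60/1 and 117 reads in pelo1/+, 4.29-fold lower. Gypsy-34_DWil-LTR had 13 reads in peloPB60/1 and 61 reads in pelo1/+, 4.24-fold lower. Below 4-fold, the entries with the largest differences were internal parts of 2 Gypsy and 2 Copia elements. Gypsy-16_DWil-I had 23 reads in peloPB60/1 and 94 in pelo1/+, and Gypsy-11_DWil-I had 38 and 153, with log2 ratios of -1.91 and -1.89. Copia-2_DWil-I had 36 reads in peloPB60/1 and 128 in pelo1/+, and Copia-1_DWil-I had 31 and 101, with log2 ratios of -1.71 and -1.59. All 8 of these had intervals that lay entirely below -1 on the log2 scale, that is beyond 2-fold by counting error alone.

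The 3 entries called higher lay nearer to the 2-fold line. They were BEL-4_DWil-I, Gypsy-24_DWil-I with 114 reads in peloPB60/1 and 58 reads in pelo1/+ (2.10-fold), and Gypsy-22_DWil-LTR with 34 and 16 reads (2.24-fold). Their intervals reached down to 0.84, 0.61 and 0.29 on the log2 scale. None of the 3 remained called with the miRNA total, where their log2 ratios were 0.79, 0.83 and 0.93, and BEL-4_DWil-I was at 0.97 with the total of both tables.

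The ratios differed between abundance classes. The 62 entries with 50 to under 200 summed reads had a median log2 ratio of -0.55, and 16 of them (25.8%) were called lower and 2 higher. The 133 other piRNA features of that abundance had a median of -0.38, and 21.1% of them were called lower. The 101 of these that are tagged for other species had a median of -0.38 as well, and 20.8% were called lower. The 16 entries with 200 to under 1000 summed reads had a median of -0.19, against -0.34 for the 80 other features of that abundance, and 2 of them were called lower and 1 higher. Over the 17 entries with at least 200 reads this was 2 lower and 1 higher, where 10.3% and 2.88% of all features of at least 200 reads were. Pooled, the entries with 50 to under 200 reads had a log2 ratio of -0.61 (-0.68 to -0.54), and those with 200 to under 1000 had -0.04 (-0.11 to 0.03), which was above 0 when scaled by upper quartiles, TMM or median-of-ratios factors. The other features of these 2 classes had pooled values of -0.37 and -0.45, and those among them tagged for other species had -0.42 and -0.65. The distant-relative entries thus lay below comparable features in the sparser class and above them in the more abundant one. The more abundant class holds both Gypsy-6_DWil-I and BEL-4_DWil-I, which lay far apart. It also holds BEL-6_DWil-I, BEL-10_DWil-I, BEL-5_DWil-LTR and BEL-1_DWil-I. As pools over all abundances, BEL entries had 0.18 (-0.06 with the miRNA total) and Gypsy entries -0.46. The classes were not compared within 1 superfamily, so abundance and superfamily are not separated here. Below 50 reads counting error is wide. The 12 entries with 10 to under 50 reads had 109 reads in peloPB60/1 and 111 in pelo1/+, and the 44 with fewer had 80 and 88. All entries of both classes were LTR entries, so abundance and part are not separated below 50 reads.

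**Figure D2:**
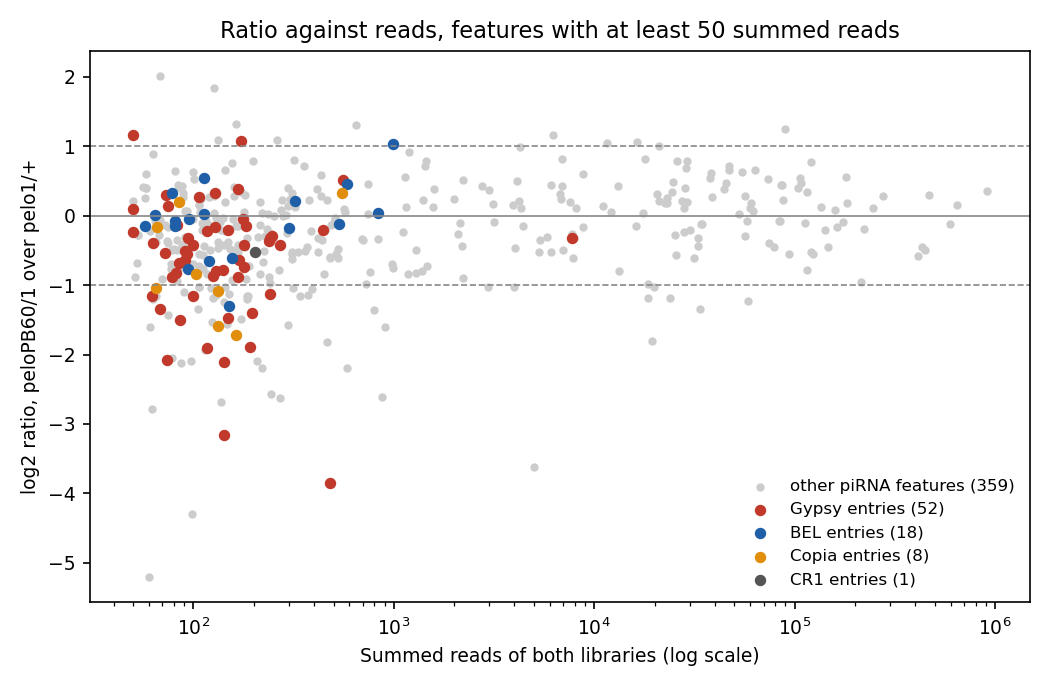
The log2 ratio of peloPB60/1 over pelo1/+ against summed reads (log scale) for the 438 piRNA features with at least 50 summed reads, with the 79 willistoni and mojavensis entries coloured by superfamily and dashed lines at 2-fold. The coloured points lie at the sparse end of the table, apart from Gypsy-30_DWil-I, and most lie below 0, where the medians were -0.40 for the 79 and -0.22 for all 438.

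Across the 79 entries, the 2 libraries had a Pearson correlation of log2 CPM of 0.77 and a Spearman correlation of 0.61. For the 359 other features that passed the filter these were 0.98 and 0.95. The points of each set share the same 2 libraries, and the 79 span a narrower and lower range of reads, so the 2 sets of values are not on an equal footing.

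By superfamily, the Gypsy entries were lower as a pool in peloPB60/1 and the BEL entries were not. The 87 Gypsy entries had 6351 reads in peloPB60/1 and 9376 reads in pelo1/+, a log2 ratio of -0.46 (-0.51 to -0.41) that stayed below 0 under all 6 other scalings. Of the 52 that passed the filter 13 were called lower and 2 higher, where 15.8% and 2.97% of all tested piRNA features were. A log2 ratio below 0 was found in 82.7% of the 52, where 62.6% of all tested features had one. Of the Gypsy-named features of other species that passed, 71.6% had one. Such shares move with scaling. Without Gypsy-30_DWil-I the distant-relative Gypsy pool had -0.59, and without Gypsy-6_DWil-I it had -0.40.

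The 33 BEL entries had 2489 reads in peloPB60/1 and 2357 reads in pelo1/+, a log2 ratio of 0.18 (0.10 to 0.26) that turned to -0.06 with the miRNA total. It also rested on 1 entry, as the pool without BEL-4_DWil-I had -0.03 (-0.12 to 0.06). Of the 18 that passed the filter 1 was called lower, BEL-14_DWil-I, and 1 higher, or 5.56% each, where 15.8% and 2.97% of all tested features were. That entry, named here as the 1 lower BEL entry, had 41 reads in peloPB60/1 and 109 reads in pelo1/+. The Gypsy and BEL pools differed by -0.64 log2 units (-0.73 to -0.55), and by -0.37 (-0.47 to -0.26) with Gypsy-6_DWil-I and BEL-4_DWil-I left out. Such a difference within the same 2 libraries does not move with scaling.

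The 14 Copia entries had 540 reads in peloPB60/1 and 774 reads in pelo1/+, a log2 ratio of -0.42 (-0.58 to -0.26). Copia-6_DWil-I lay apart from the pool, at 0.32. Without it the remaining Copia entries had 243 reads in peloPB60/1 and 519 in pelo1/+, a log2 ratio of -0.99 (-1.22 to -0.77). Of the 8 Copia entries that passed, all of them internal parts, 4 were called lower and 0 higher, where 15.8% and 2.97% of all tested features were. Of the 4, Copia1-I_Dmoj and Copia2-I_Dmoj, named here for lying near the 2-fold line, had -1.09 and -1.05. TMM, median-of-ratios factors and upper quartiles add 0.18, 0.13 and 0.10, which lifts both above -1. The others, Copia-2_DWil-I and Copia-1_DWil-I, stayed called, at -1.54 and -1.41 with TMM. The Gypsy and Copia pools differed by -0.04 (-0.21 to 0.12). CR1-1_DWil, the 1 entry without LTRs, had 80 reads in peloPB60/1 and 124 reads in pelo1/+ (log2 ratio -0.53, -0.95 to -0.11) and was not called.

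LTR elements with melanogaster names of the same superfamilies received far more reads, and their pools did not follow the distant-relative entries. The pools are thus not matched for abundance. Of the listed features with under 1000 summed reads, gypsy11, invader5 and frogger had log2 ratios of -0.35, -0.60 and -0.52. The others, CIRCE and gypsy9, had 0.10 and 0.02. The 45 of 46 listed Gypsy elements that were found, among them gypsy, mdg1 and blood, took up 46 features and held 30.0% of the piRNA reads in peloPB60/1 and 26.1% in pelo1/+. Their pooled log2 ratio was 0.20, or -0.03 with the miRNA total, against -0.46 for the Gypsy entries, a difference of -0.66 (-0.71 to -0.62). The 7 of 10 listed BEL elements that were found had -0.16, or 0.02 with TMM, so that the BEL entries differed from them by 0.34 (0.26 to 0.42), or by 0.13 (0.04 to 0.22) without BEL-4_DWil-I. Their pool was mostly roo and Max-element, at -0.58 and 0.15. The 4 of 5 listed Copia elements that were found had 0.68, and the Copia entries differed from them by -1.10 (-1.25 to -0.94), or by -1.67 (-1.89 to -1.45) without Copia-6_DWil-I. Of these lists 4 of 46, 1 of 7 and 0 of 4 features were called lower and 1, 0 and 0 higher, where 15.8% and 2.97% of all tested features were.

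The entries were also set beside the features tagged for other Drosophila species. The distant-relative Gypsy entries that passed the filter had a median log2 ratio of -0.47, and the 74 Gypsy-named features of other species that passed had -0.39. Of the distant-relative ones 13 of 52 were called lower and 2 higher, and of the others 19 of 74 (25.7%) were called lower and 1 higher. As a pool, the 131 Gypsy-named features of other species had -0.01, or above 0 when scaled by upper quartiles, TMM or median-of-ratios factors. The distant-relative Copia entries had a pooled log2 ratio of -0.42 and the 15 Copia-named features of other species had -0.90. By medians over the 8 that passed in each set the order was the other way, at -0.95 for the distant-relative entries and -0.50 for the others. The distant-relative BEL entries had a pooled value of 0.18, or -0.03 without BEL-4_DWil-I, and the 37 BEL-named features of other species had -0.29. With the miRNA total the 2 full pools had -0.06 and -0.53. The medians over the features that passed were -0.06 and -0.38.

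**Figure D3:**
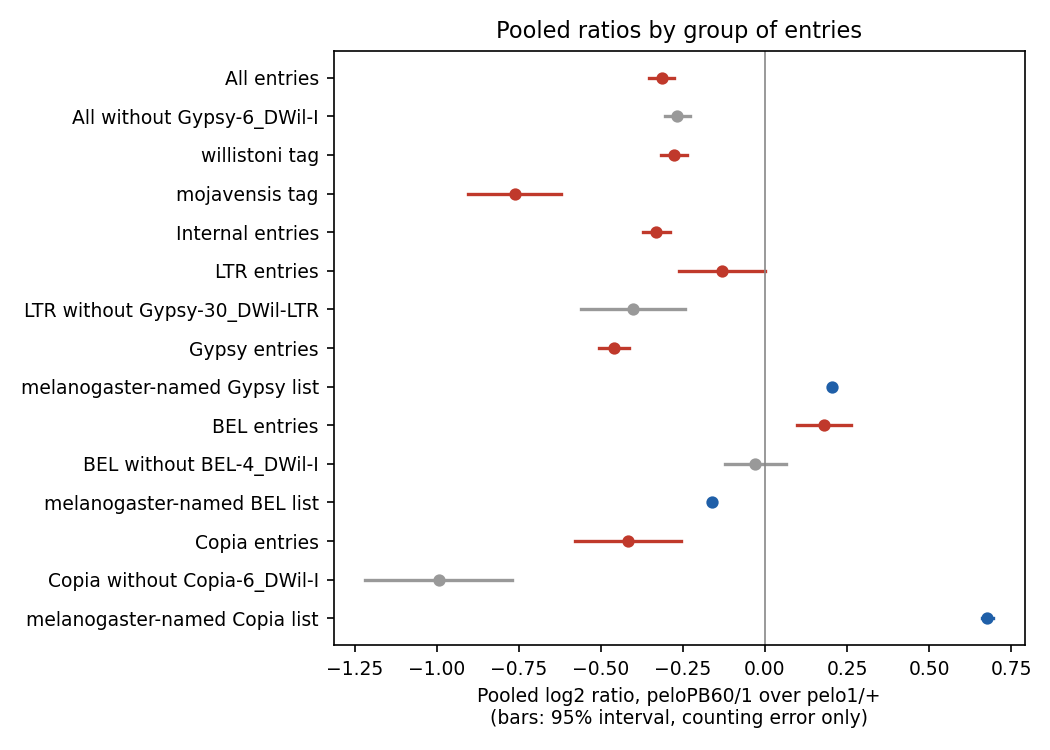
Pooled log2 ratio of peloPB60/1 over pelo1/+ with its 95% interval (counting error only) for groups of willistoni and mojavensis entries (red), the same groups without 1 entry (grey) and lists of melanogaster-named elements (blue). The Gypsy entries lie at -0.46 and the melanogaster-named Gypsy list at 0.20 (-0.03 with the miRNA total), and the BEL entries move to -0.03 once BEL-4_DWil-I is left out.

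Internal entries carried most of the reads. The 70 internal entries had 8497 reads in peloPB60/1 and 11469 reads in pelo1/+, a log2 ratio of -0.33 (-0.37 to -0.29), and 15 were called lower (21.4%) and 2 higher (2.86%), where 15.8% and 2.97% of all tested features were. The 64 LTR entries had 883 reads in peloPB60/1 and 1038 reads in pelo1/+, a log2 ratio of -0.13 (-0.26 to -0.0005) that turned to 0.05 with TMM. Of the 8 LTR entries that passed the filter 3 were called lower and 1 higher, against the same 15.8% and 2.97%. The median entry had 128 summed reads if internal and 5 if an LTR. In 59 of the 60 elements with both, the internal entry had more reads than the LTR entry. The exception was BEL-5_DWil, whose internal entry had 42 reads in peloPB60/1 and 36 in pelo1/+ beside the 245 and 287 of its LTR.

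The internal and LTR pools differed by -0.20 log2 units (-0.34 to -0.06). This rested on the element Gypsy-30_DWil, without which they differed by 0.07 (-0.09 to 0.23). The LTR pool itself leaned on single entries in both directions. It had -0.40 without Gypsy-30_DWil-LTR and 0.04 without Gypsy1-LTR_Dmoj.

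Both entries passed the filter in 8 elements, which allowed the parts of 1 element to be set side by side. In 3 of the 8 the intervals did not overlap. For Gypsy1_Dmoj the internal entry had 110 reads in peloPB60/1 and 159 in pelo1/+ (log2 ratio -0.43), while the LTR entry was 8.94-fold lower. The LTR thus held 10.6% of the reads of this element in peloPB60/1 and 44.8% in pelo1/+. For Gypsy-34_DWil the internal entry had 41 reads in peloPB60/1 and 59 in pelo1/+ (-0.42) and the LTR entry -2.09, so that the LTR held 24.1% of its reads in peloPB60/1 and 50.8% in pelo1/+. Gypsy-30_DWil went the other way, with 8.84% of its reads on the LTR in peloPB60/1 and 5.12% in pelo1/+.

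In the remaining 5 elements the intervals of the 2 parts overlapped. Gypsy-1_DWil-LTR had 18 reads in peloPB60/1 and 44 in pelo1/+ and was called lower (-1.16), or was not with TMM (-0.99), where its internal entry had -0.20. The internal and LTR entries of Gypsy-22_DWil were both above 0, at 0.33 and 1.17, and the internal entry had 69 reads in peloPB60/1 and 59 in pelo1/+. Gypsy6_Dmoj had 91 and 75 reads on its internal entry and 26 and 37 on its LTR in peloPB60/1 and pelo1/+, with log2 ratios of 0.38 and -0.40. Gypsy-37_DWil had 38 and 37 reads on its internal entry and 25 in each library on its LTR.

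**Figure D4:**
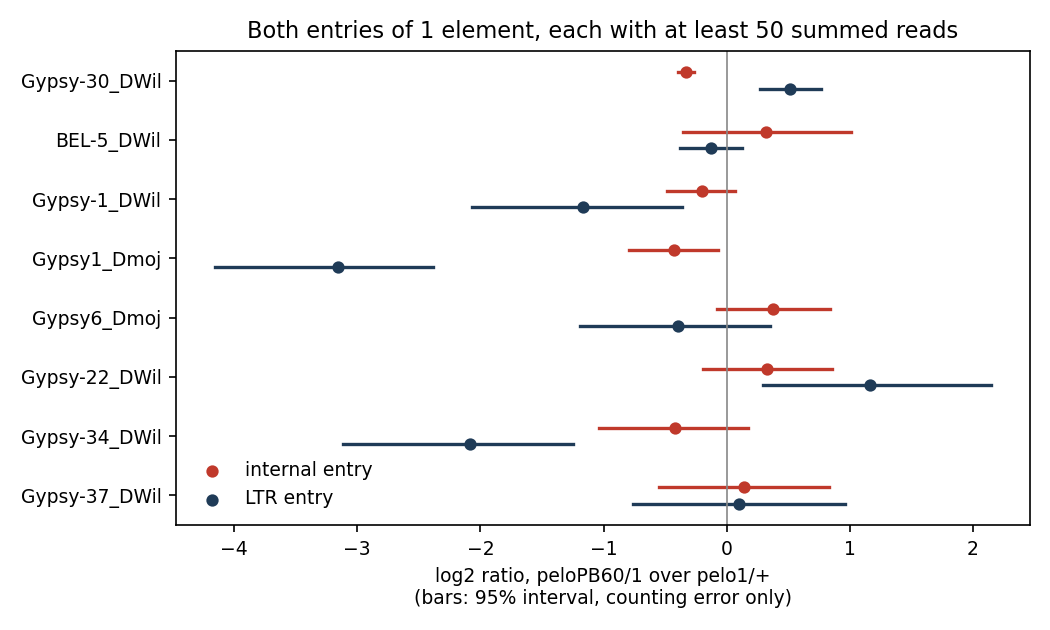
The log2 ratio of peloPB60/1 over pelo1/+ with its 95% interval (counting error only) for the internal entry and the LTR entry of the 8 elements in which both had at least 50 summed reads. The intervals are apart in Gypsy-30_DWil, Gypsy1_Dmoj and Gypsy-34_DWil, with the LTR the higher of the 2 in Gypsy-30_DWil and the lower in the other 2.

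By species tag, the mojavensis entries were the lower of the 2 sets as pools. The 20 mojavensis entries had 630 reads in peloPB60/1 and 1147 reads in pelo1/+, a log2 ratio of -0.76 (-0.90 to -0.62). The 115 willistoni entries had 8830 reads in peloPB60/1 and 11484 reads in pelo1/+, a log2 ratio of -0.28 (-0.32 to -0.24). Both stayed below 0 under all 6 other scalings. The 2 tags differed by -0.49 log2 units (-0.63 to -0.34), and by -0.40 (-0.55 to -0.25) without the entry of the largest difference in each, Gypsy1-LTR_Dmoj and Gypsy-6_DWil-I. The 2 sets were not matched for abundance. The mojavensis entry with the most reads, Gypsy1-I_Dmoj, had 269 summed reads, where Gypsy-30_DWil-I had 7750. Entries of either tag with 50 to under 200 summed reads pooled at -0.61. Of 13 mojavensis entries that passed the filter 6 were called lower (46.2%) and 0 higher, and of 66 willistoni entries 12 were lower (18.2%) and 3 higher (4.55%). Of all tested features 15.8% were lower and 2.97% higher, so the willistoni share of lower entries was near that of the whole table. Gypsy4-I_Dmoj, Gypsy7-I_Dmoj, Copia1-I_Dmoj and Copia2-I_Dmoj, named here for lying near the 2-fold line, were called lower at -1.15, -1.12, -1.09 and -1.05. TMM adds 0.18 to every log2 ratio, which lifts all of these above -1, so none would be called. Among the lower willistoni entries Gypsy-1_DWil-LTR was lost with TMM, at -0.99. The contrast in shares thus rests partly on entries near the line. Within the superfamilies, the Gypsy entries had -0.91 with the mojavensis tag and -0.42 with the willistoni tag, and the Copia entries had -1.05 and -0.31. The Copia contrast leaned on Copia-6_DWil-I, a willistoni entry at 0.32. Without that entry, Copia entries of both tags together had -0.99, close to the mojavensis value. The willistoni Gypsy value includes Gypsy-30_DWil-I, at -0.33, without which Gypsy entries of both tags together had -0.59. The mojavensis Gypsy value includes Gypsy1-LTR_Dmoj, at -3.16, without which all mojavensis entries together had -0.62. The Gypsy and Copia pools within 1 tag were not computed without these entries. The BEL entries had 0.32 (-0.08 to 0.72, from 4 entries) and 0.17, the second of which was -0.06 with the miRNA total.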

How the data were processed

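Small RNA reads of 1 peloPB60/1 and 1 pelo1/+ library were deposited by the authors as raw counts per feature, with no normalization. Per the submitters' processing notes, Bowtie 0.12.7 and the build BDGP5 were used, in roles not stated. Not given in the sources used here are the repeat reference, the mismatches allowed, strand and the handling of reads with several matches. A feature listed for 1 library was given 0 counts in the other. Names were sorted by species tag, start (Gypsy, BEL, Copia) and part (-I, -LTR).

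Counts were divided by the total of the piRNA table. Single log2 ratios used 0.5 added counts, pooled ratios none. Intervals were exact conditional (Clopper-Pearson) ones, and Wald intervals for differences of pooled log2 ratios, all at 95% and for counting error only, since reads carry no molecular identifiers. Features needed 50 summed counts and were called at 2-fold with an interval that left out a ratio of 1. Scaling factors came from edgeR 4.0.16 and DESeq2 1.42.0, which ran no test. The procedure was tested on simulated Poisson counts. Members, lists and rules were chosen with earlier results of these data known. Named entries are the 10 with the most reads, up to 8 largest calls per direction, the 3 with the most reads per superfamily and part, and both entries of elements whose parts both passed. Sequences of the entries were not used here.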

Additional observations from a re-analysis of the deposited data

Results flagged for a closer look

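The choice by the tags DWil and Dmoj leaves out 8 features whose names carry similar tags. They are R1_DWi, R2-1_DWi, R2-2_DWi, R1_DMo, Penelope1_Dw and Penelope2_Dw, and 2 whose names begin with Dwil. They drew attention because reads lie on them outside the 135 entries, 290 in peloPB60/1 and 367 in pelo1/+, more than the 3 that a count of 0 allows. In the comparisons above they were counted among the 269 features tagged for other species, although their tags may mark willistoni or mojavensis. Unlike the LTR elements described above, R1 and R2 are non-LTR retrotransposons that insert into ribosomal DNA. R1_DMo had 111 reads in peloPB60/1 and 104 in pelo1/+, and R1_DWi had 108 and 113. Penelope1_Dw had 18 reads in peloPB60/1 and 45 in pelo1/+, a log2 ratio of -1.20 (-2.10 to -0.40).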

How the results depend on the processing

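No paired analysis was possible because there is 1 library a genotype, so none could be left out either. Leaving out Gypsy-6_DWil-I or Gypsy1-LTR_Dmoj and all alternatives for the species tags were chosen after seeing the data. Scaling adds 1 constant to every log2 ratio, from -0.24 (miRNA total) to 0.18 (TMM). Pooled log2 ratios with the total of both tables were -0.38 for all entries, -0.40 for internal, -0.53 for Gypsy and -0.34 for willistoni entries. With TMM they were -0.14 for all, -0.15 for internal, 0.047 for LTR, -0.28 for Gypsy, 0.36 for BEL, -0.24 for Copia, -0.10 for willistoni and -0.58 for mojavensis entries. With median-of-ratios factors they were -0.18 for all, -0.20 for internal, -0.00018 for LTR, -0.33 for Gypsy, 0.31 for BEL and -0.15 for willistoni entries. With upper quartiles they were -0.22 for all, -0.23 for internal, -0.36 for Gypsy, 0.28 for BEL and -0.18 for willistoni entries. With the miRNA total they were -0.55 for all, -0.57 for internal, -0.37 for LTR, -0.70 for Gypsy, -0.057 for BEL, -0.66 for Copia, -0.51 for willistoni and -1.0001 for mojavensis entries. Without Gypsy-6_DWil-I they were -0.27 for all, -0.28 for internal, -0.40 for Gypsy and -0.22 for willistoni entries. Without their entry with the most reads they were -0.40 for LTR, -0.59 for Gypsy, -0.029 for BEL and -0.99 for Copia, and without Gypsy1-LTR_Dmoj 0.039 for LTR and -0.62 for mojavensis entries. The sign changed for LTR entries with TMM and without Gypsy1-LTR_Dmoj, and for BEL entries with the miRNA total and without BEL-4_DWil-I, by the constant or by leaving out that entry. The count of lower entries (18) was 13 with TMM, 15 with median-of-ratios factors, 16 with upper quartiles and 26 with the miRNA total. It was 32 at 1.5-fold, 4 at 4-fold, 2 with at least 200 counts and 6 for mojavensis alone. The count of higher entries (3) was 0 with the miRNA total, 0 at 4-fold, 1 with at least 200 counts and 0 for mojavensis alone. The median (-0.40) was -0.22 with TMM, -0.27 with median-of-ratios factors, -0.64 with the miRNA total, -0.30 with no filter, -0.20 with at least 200 counts and -0.83 for mojavensis (-0.76 pooled) alone. Of 203 values of single named entries under other scalings or 1 added count, 198 stayed on their side of the rule and 5 no longer passed it. These entries were chosen by reads, by the largest calls or by both parts passing the filter. Several calls near the 2-fold line are not among them, so the 203 values do not describe how stable all calls are. Over all entries the lower calls fell from 18 to 13 with TMM.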
